A study of Mus musculus with 18 samples.

Results

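A set of 6 genes of zinc binding and zinc transport was followed through the differentiation of mouse neural stem cells into astrocytes: the metallothioneins Mt1, Mt2 and Mt3, the zinc-sensing transcription factor Mtf1, the zinc exporter Slc30a1 and the zinc importer Slc39a8. The genes were taken as a list, and their 6 rows were found by symbol among the 54838 genes of the deposited count table. RNA was sequenced from 6 conditions with 3 libraries each. Neural stem cells were taken from single brains of wild type C57BL/6J mice at embryonic day 14, out of the ventricular zone, and were grown as neurospheres (NSPs) with EGF at 20 ng/ml. Astrocytes were obtained by moving NSPs onto coated plates in medium with 10% serum. They were kept so for 24 h or 72 h, either untreated or with TNF (tumor necrosis factor, an inflammatory cytokine) at 50 ng/ml, or for 1 week untreated. By the methods the base medium also changed and the supplement of the NSP medium was left out. Differentiation, these changes, the loss of EGF and the arrival of serum came together, so their effects cannot be told apart. No library had TNF at 1 week.

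Metallothioneins are small, cysteine-rich proteins that bind zinc and copper and buffer them in the cytosol. Mt1 and Mt2 are made in many tissues and in the brain above all by astrocytes, while Mt3 is enriched in the brain. When free zinc rises, the protein of Mtf1 (metal regulatory transcription factor) binds short DNA sequences called metal response elements in the promoters of Mt1, Mt2 and Slc30a1 and raises their transcription. The product of Slc30a1, ZnT1, moves zinc out of the cell through the plasma membrane, and that of Slc39a8, ZIP8, moves zinc and manganese in. Mt1 and Mt2 are also known to be induced by glucocorticoids, cytokines and oxidants.

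In these cultures, RNA of all 3 metallothioneins rose in the first day of differentiation and had its highest mean at 72 h. Slc30a1 did not pass the test at 24 h and then rose at 72 h and 1 week, and Mtf1 rose by at most 1.57-fold. With TNF, Mt1, Mt2, Mt3 and Slc30a1 were lower at 72 h than without it. The calls of Mt1 and Mt2 depended on single libraries, and that of Mt2 also on the filter and the block. Slc39a8 had hardly any reads in any condition.

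The metallothionein genes lie side by side on one strand of chromosome 8. On GRCm38 with GENCODE M21, Mt3 spans chr8:94152607-94154146, Mt2 chr8:94172664-94173568 and Mt1 chr8:94179082-94180327, all on the forward strand, with 18517 bases between Mt3 and Mt2 and 5513 bases between Mt2 and Mt1. Mtf1 is at chr4:124802104-124849800, Slc30a1 at chr1:191906767-191913247 and Slc39a8 at chr3:135825279-135888572, also on the forward strand. Of these, 3 share exon bases with a gene on the opposite strand: Mt2 shares 432 bases with Gm45774, Mtf1 721 with 1110065P20Rik and Slc30a1 468 with 1700034H15Rik. The libraries kept strand, but the strand setting of the counting is not given in the sources used here. Nor is the treatment of reads that match both Mt1 and Mt2, which are close paralogs, so the split of reads between these genes is uncertain. Condition means of these neighbours ran from 0.666 to 4.24 CPM (the counts of a gene scaled to library size) for Gm45774, from 3.21 to 11.8 CPM for 1110065P20Rik and from 0.213 to 1.20 CPM for 1700034H15Rik, below the mean of the gene that each overlaps in every condition.

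The promoters of the 4 genes called lower with TNF than without it at 72 h are printed here. Of these calls, those of Mt1 and Mt2 depended on single libraries. The print shows where each promoter holds the letters of metal response elements, to which Mtf1 is known to bind. Each is the 300 bases from 250 before to 50 after the start of the gene in RefSeq on GRCm38.p6, which can differ from the start in GENCODE, 5′ to 3′ on the forward strand. Capitals mark the cores of metal response elements, TGCACNC or TGCGCNC, with matches to the opposite strand shown as their reverse complement. The windows are chr8:94178839-94179138 for Mt1, chr8:94172368-94172667 for Mt2, chr8:94152357-94152656 for Mt3 and chr1:191906531-191906830 for Slc30a1.
Mt1: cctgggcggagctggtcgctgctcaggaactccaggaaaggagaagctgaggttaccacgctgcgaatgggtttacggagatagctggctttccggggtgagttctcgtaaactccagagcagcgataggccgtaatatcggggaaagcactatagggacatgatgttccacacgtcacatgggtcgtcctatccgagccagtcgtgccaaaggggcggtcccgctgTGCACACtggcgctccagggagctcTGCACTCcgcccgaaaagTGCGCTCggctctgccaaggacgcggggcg
Mt2: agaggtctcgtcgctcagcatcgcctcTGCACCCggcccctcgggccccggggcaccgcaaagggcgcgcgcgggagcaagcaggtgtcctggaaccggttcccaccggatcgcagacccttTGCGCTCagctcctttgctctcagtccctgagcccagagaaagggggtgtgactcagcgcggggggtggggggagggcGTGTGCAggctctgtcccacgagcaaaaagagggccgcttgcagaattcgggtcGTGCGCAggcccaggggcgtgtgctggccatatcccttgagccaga
Mt3: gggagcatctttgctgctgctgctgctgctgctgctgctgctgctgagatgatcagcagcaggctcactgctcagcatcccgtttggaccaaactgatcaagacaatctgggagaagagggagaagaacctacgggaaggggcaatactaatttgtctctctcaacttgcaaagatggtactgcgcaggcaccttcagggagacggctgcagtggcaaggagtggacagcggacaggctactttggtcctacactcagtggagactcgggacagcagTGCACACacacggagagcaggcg
Slc30a1: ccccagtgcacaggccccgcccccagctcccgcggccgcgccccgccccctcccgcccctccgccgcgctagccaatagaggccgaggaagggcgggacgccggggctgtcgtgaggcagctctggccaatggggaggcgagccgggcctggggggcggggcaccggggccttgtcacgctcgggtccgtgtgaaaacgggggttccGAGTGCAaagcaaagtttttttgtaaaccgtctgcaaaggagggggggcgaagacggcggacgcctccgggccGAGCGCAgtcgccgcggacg

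The window of Mt2 held 4 cores, that of Mt1 held 3, that of Slc30a1 held 2 and that of Mt3 held 1. The window of Mtf1 held 0, and the windows at the 2 starts of Slc39a8 held 0 and 1. Of 32817 promoters of the same length in RefSeq, 25.7% held at least 1 core, 7.12% at least 2, 1.97% at least 3 and 0.518% at least 4. The antioxidant response element core TGACNNNGC, searched on both strands, was found once each in the windows of Mt2, Slc30a1 and the first start of Slc39a8, and in 12.4% of all promoters. The STAT element TTCNNNGAA was in none of the 7 windows and in 8.29% of all promoters, and the E-box CACGTG was in the window at the second start of Slc39a8 and in 7.15% of all promoters. No motif was searched for outside these windows, and a match is a run of letters, not evidence of binding.

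**Figure D1:**
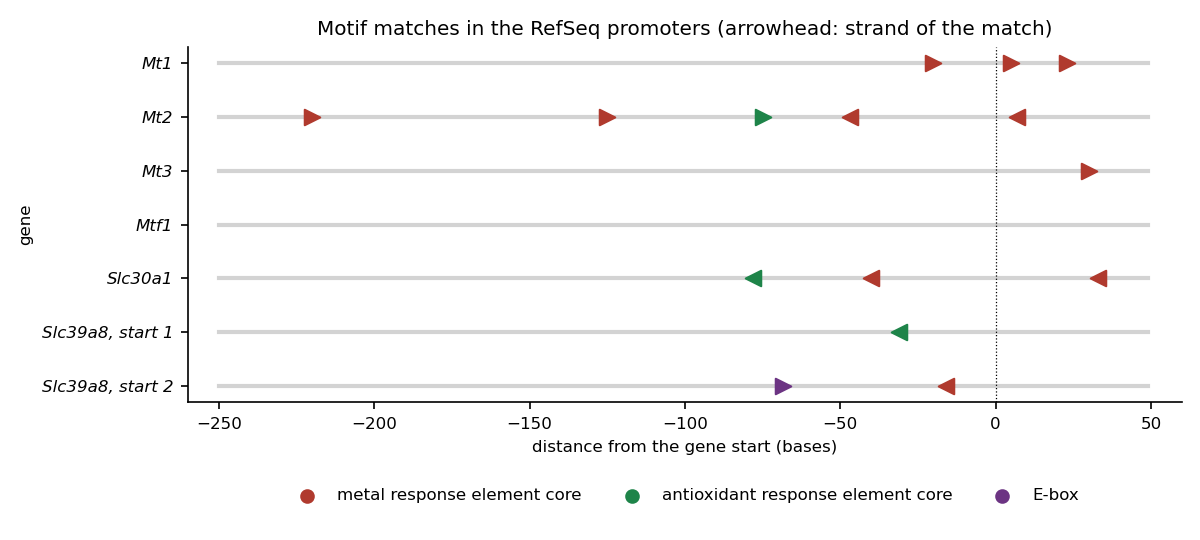
Positions of motif matches in the promoter windows of the 6 genes (Slc39a8 has 2 starts), with the distance from the gene start in bases on the x axis and 1 line per window; arrowheads point along the strand of the match and colours give the motif. The metal response element cores number 3 for Mt1, 4 for Mt2, 1 for Mt3, 2 for Slc30a1 and 0 for Mtf1.

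Total counts ranged from 12509693 to 22549627 per library. The paper's methods give RNA quality numbers over a wide range, with no value for a single library. Mitochondrial genes took 1.60% to 8.01% of the counts, with the highest shares in replicate 1 of both TNF conditions (6.24% at 24 h and 8.01% at 72 h). In counts over genes, replicate 1 stood apart from replicates 2 and 3 in NSPs (chi-square per degree of freedom 46.4 and 40.5, against 3.71 between the others), at 24 h with TNF (43.7 and 54.6 against 8.10) and at 72 h with TNF (48.5 and 55.4 against 11.1). Gfap, the astrocyte intermediate filament, differed there too, with 1871, 463 and 596 CPM in the TNF libraries at 24 h and 1022, 217 and 229 CPM at 72 h. The 8 astrocyte markers were detected in every condition and summed to 5128 to 5364 CPM in NSPs, 5324 to 5789 CPM at 24 h, 5696 to 8145 CPM at 72 h and 2683 to 3247 CPM at 1 week, below NSPs. Single markers went different ways. Gfap had 11.6 to 37.3 CPM in NSPs, 864 to 949 CPM at 24 h, 1855 to 3172 CPM at 72 h and 52.7 to 81.6 CPM at 1 week. S100b had 116 to 120 CPM in NSPs, 60.5 to 71.2 CPM at 24 h, 53.9 to 90.1 CPM at 72 h and 12.2 to 17.6 CPM at 1 week. The 7 neural stem cell markers summed to 3069 to 3890 CPM in NSPs and to 1413 to 1503 CPM at 24 h. The part of these markers in the results was not tested. Of markers of other cells, the 8 of microglia summed to 1.15 to 3.95 CPM, the 6 of endothelium to 3.02 to 7.61 CPM and the 6 of fibroblasts and mural cells to 0.254 to 5.86 CPM over the libraries, with C1qa of microglia at 0 in all of them and Lum of fibroblasts also at 0. The 8 oligodendrocyte lineage markers summed to 1061 to 1367 CPM in NSPs and to 82.4 to 91.7 CPM at 72 h, and the 7 neuron markers to between 1438 and 2093 CPM over all libraries, of which Map2 alone had 1409 to 2075 CPM and each of the others at most 55.5 CPM (Tubb3) in any library. In bulk cultures fewer cells of a type and less RNA per cell cannot be told apart. Levels below are TMM-normalized CPM unless a length is named, and a gene is called changed where edgeR's quasi-likelihood test over all 18 libraries gave a Benjamini-Hochberg adjusted p under 0.05 among 20067 tested genes. Of the 6 genes, 5 were tested. The methods speak in general of independent experiments and of cells from single brains, but no source ties each library to an animal, so p-values measure the spread between these libraries.

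Per length of exon, Mt1 was the most abundant of the 6 genes. In the 72 h libraries Mt1 stood at 929 ± 218 CPM per kilobase of exon union (SD, n = 3), Mt3 at 530.3 ± 97.0, Mt2 at 206 ± 52.0, Slc30a1 at 34.6 ± 4.62 and Mtf1 at 5.21 ± 0.279. In NSPs the same scale gave 92.3 ± 42.2 for Mt1, 69.1 ± 10.96 for Mt3 and 19.6 ± 9.31 for Mt2. The order by mean, Mt1 above Mt3, Mt2, Slc30a1, Mtf1 and Slc39a8, was the same in all 6 conditions on this scale. Mt1 and Mt3 changed places in 4 conditions (NSPs, both TNF conditions and 1 week) when the longest transcript was used as the length, so their order rests on the gene model.

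Slc39a8, with only 12 counts in all 18 libraries, did not pass edgeR's filter on low counts and was not tested with the others. It was at 0 counts in 10 libraries, all 3 of NSPs among them, and at most at 3 counts in any library, which is the limit that a count of 0 allows at this depth. When genes were kept at 5 or more counts in total it was fitted, and 0 of the 11 tests called it (lowest edgeR adjusted p = 0.104), so no difference in Slc39a8 was detectable at this depth. Mt4, the metallothionein of squamous epithelia next to Mt3, had 1 count in all.

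**Figure D2:**
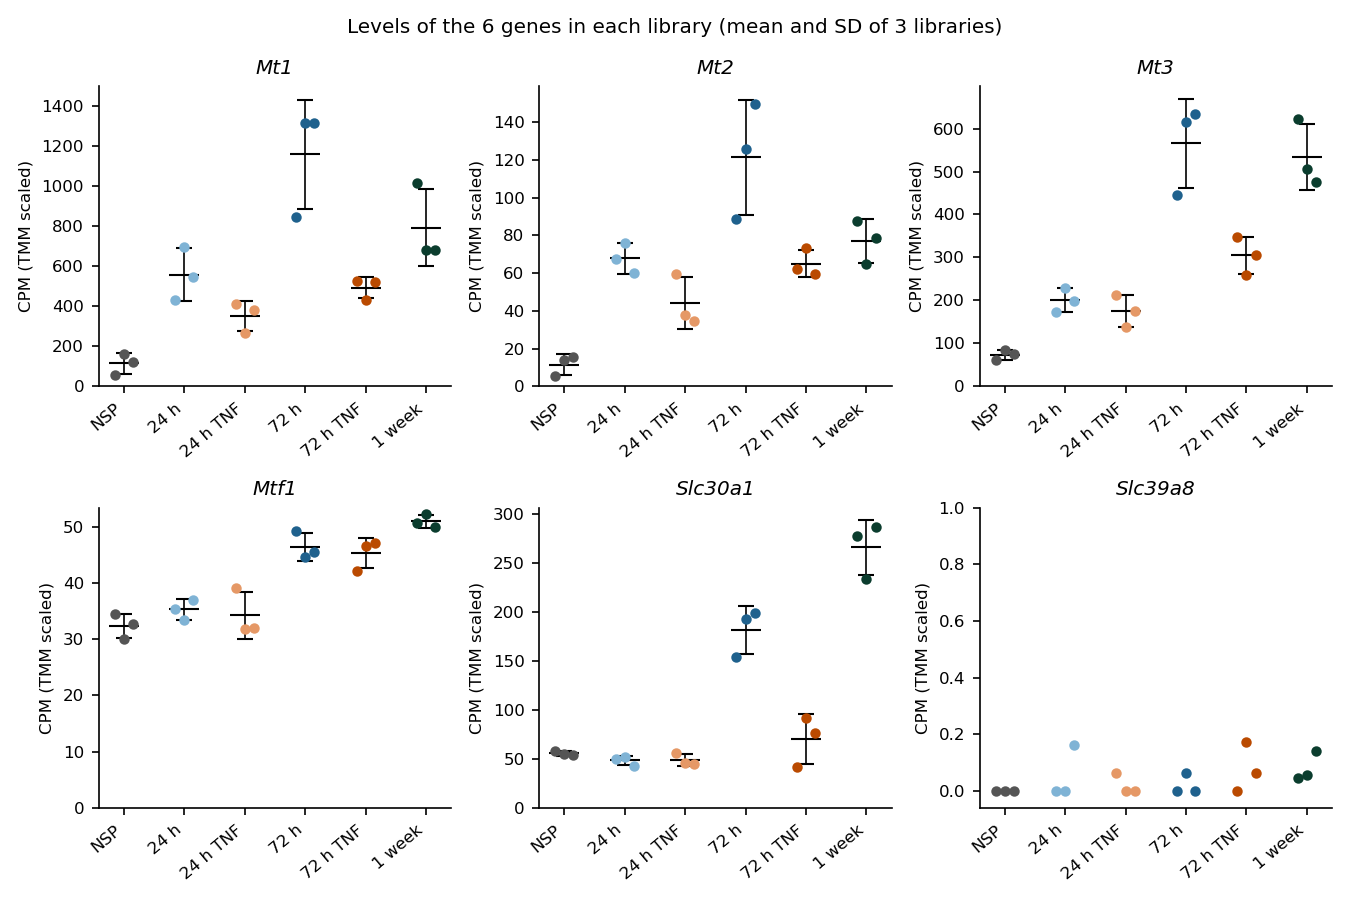
TMM-normalized CPM (y axis, linear) of each gene in the 6 conditions (x axis); points are the 3 libraries, bars the mean and SD, with no SD drawn for Slc39a8, whose 18 libraries hold 12 counts. The 72 h libraries of Mt1 (843 to 1315 CPM) stand above those with TNF at 72 h (431 to 523 CPM), as do those of Slc30a1 (154 to 198 against 41.9 to 91.2 CPM).

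The first question was how the 6 genes changed as NSPs became astrocytes. At 24 h, 3 of the 5 tested genes were called, all higher, where 52.6% of all tested genes were called, 27.1% higher and 25.5% lower. Mt1 had 59.0, 163 and 123 CPM in the 3 NSP libraries and 430, 696 and 547 CPM at 24 h. The groups did not overlap, and Mt1 was 4.85-fold higher at 24 h (log2 fold change 2.28 ± 0.30 SE, n = 3 against 3, adjusted p = 8.35e-06 by edgeR). Mt2, whose product is a close relative of that of Mt1, had 5.27, 13.9 and 15.4 CPM in NSPs and 67.5, 76.3 and 59.9 CPM at 24 h. It was 5.87-fold higher (log2 fold change 2.55 ± 0.30, edgeR adjusted p = 2.19e-06). Mt3 had 61.1, 84.2 and 75.8 CPM in NSPs and 173, 228 and 200 CPM at 24 h, again without overlap, a 2.72-fold rise (log2 fold change 1.44 ± 0.18, edgeR adjusted p = 3.43e-06). NSP replicate 1 was the lowest NSP library for all 3 metallothioneins. Without it the log2 fold changes at 24 h were 1.96 for Mt1, 2.21 for Mt2 and 1.32 for Mt3, and every call of the 5 genes against NSPs, at all times, remained.

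Mtf1 and Slc30a1 did not pass the test at 24 h. Mtf1 had 34.4, 30.1 and 32.7 CPM in NSPs and 35.4, 33.4 and 37.0 CPM at 24 h, and the groups overlapped (log2 fold change 0.12 ± 0.11, edgeR adjusted p = 0.371). Slc30a1 had 57.9, 54.7 and 53.8 CPM in NSPs and 49.9, 52.3 and 43.1 CPM at 24 h. All of the 24 h libraries were below all NSP libraries, but the difference of -0.20 ± 0.20 on the log2 scale was no larger than its standard error (edgeR adjusted p = 0.417).

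By 72 h all 5 tested genes were higher than in NSPs, where 55.3% of all tested genes were called, 28.1% higher and 27.2% lower. Mt1 reached 843, 1313 and 1315 CPM, 10.1-fold above NSPs (log2 fold change 3.33 ± 0.32, edgeR adjusted p = 8.74e-08). Mt2 reached 88.9, 126 and 150 CPM, 10.5-fold above NSPs (3.39 ± 0.31, edgeR adjusted p = 5.33e-08). In both genes 72 h replicate 1 was the lowest of the 3 libraries. Mt3 reached 446, 616 and 633 CPM, a 7.67-fold rise from NSPs (log2 fold change 2.94 ± 0.19, edgeR adjusted p = 2.86e-10). Slc30a1 had 154, 193 and 198 CPM, 3.27-fold above NSPs (1.71 ± 0.20, edgeR adjusted p = 6.97e-07). Mtf1 had 49.3, 44.6 and 45.5 CPM, a rise of 1.43-fold without overlap between the groups (0.52 ± 0.11, edgeR adjusted p = 0.000614).

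The rise went on after the first day. All 5 tested genes were higher at 72 h than at 24 h, where 24.7% of all tested genes were called, 12.1% higher and 12.6% lower. Slc30a1, which had not passed at 24 h, rose 3.75-fold (log2 fold change 1.91 ± 0.20, edgeR adjusted p = 1.75e-06), and Mt3 rose 2.82-fold (1.50 ± 0.18, edgeR adjusted p = 8.00e-06). Mt1 rose 2.07-fold (1.05 ± 0.29, edgeR adjusted p = 0.0126), Mt2 1.79-fold (0.84 ± 0.28, edgeR adjusted p = 0.0346) and Mtf1 1.32-fold (0.40 ± 0.11, edgeR adjusted p = 0.0132). The calls of Mt1 and Mt2 depended on single libraries. Without 24 h replicate 1, 72 h replicate 2 or 72 h replicate 3 the adjusted p of Mt1 was 0.0683, 0.0535 or 0.0556, and Mt2 kept its call in 1 of 6 such fits, with adjusted p from 0.0191 to 0.159 (without 24 h replicates 1, 2 and 3 and 72 h replicates 2 and 3 it was 0.0934, 0.0564, 0.120, 0.0921 and 0.159). Mt2 also failed with genes kept at 5 or more counts in total (0.0733) and with the replicate number as a block (0.0523). In a block that left 72 h replicate 3 unpaired, chosen after the data were seen, both failed (0.0785 for Mt1 and 0.219 for Mt2).

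At 1 week all 5 tested genes were again higher than in NSPs, where 58.6% of all tested genes were called, 29.5% higher and 29.1% lower. Mt1 had 1013, 680 and 681 CPM (6.88-fold above NSPs, log2 fold change 2.78 ± 0.31, edgeR adjusted p = 5.38e-07). Mt2 had 87.8, 64.7 and 78.5 CPM (6.65-fold, 2.73 ± 0.30, edgeR adjusted p = 5.33e-07). For both genes replicate 1 was the highest of the 1 week libraries. Mt3 had 621, 505 and 476 CPM (7.24-fold, 2.86 ± 0.19, edgeR adjusted p = 3.43e-10). Slc30a1 had 277, 234 and 286 CPM (4.79-fold, 2.26 ± 0.20, edgeR adjusted p = 1.82e-08), and Mtf1 had 50.6, 52.3 and 50.0 CPM (1.57-fold, 0.65 ± 0.11, edgeR adjusted p = 5.65e-05). These were the highest libraries of Slc30a1 and Mtf1 in the series.

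Between 72 h and 1 week 0 of the 5 tested genes were called by edgeR and 0 by DESeq2, where edgeR called 6.59% of all tested genes (2.66% higher and 3.94% lower). At an unadjusted p under 0.05 there were 2, Mt2 and Slc30a1. The Mt2 libraries at 1 week were all below those at 72 h (log2 difference -0.66 ± 0.28, edgeR adjusted p = 0.192), and the Slc30a1 libraries at 1 week were all above those at 72 h (0.55 ± 0.19, edgeR adjusted p = 0.103). In a fit of these 2 conditions alone both passed, with adjusted p of 0.0421 for Mt2 and 0.0187 for Slc30a1. Mt1 (-0.55 ± 0.29), Mt3 (-0.08 ± 0.18) and Mtf1 (0.13 ± 0.11) had edgeR adjusted p of 0.321, 0.873 and 0.579.

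**Figure D3:**
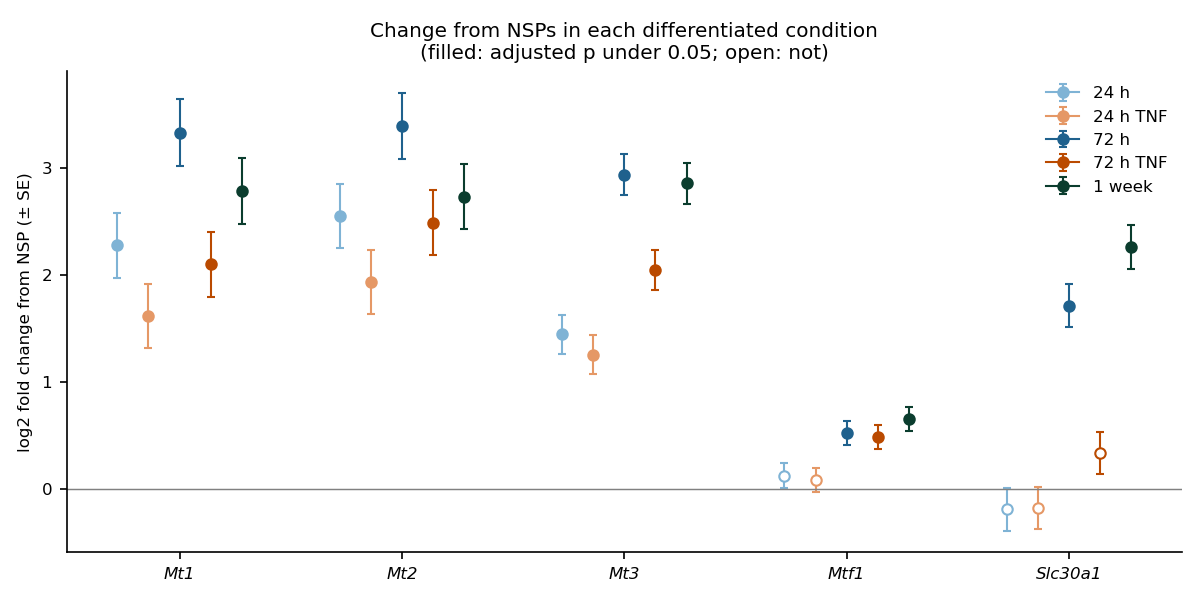
Log2 fold change from NSPs (y axis, with SE) of the 5 tested genes (x axis) in each differentiated condition (colour); filled points passed the test and open points did not. All points of the metallothioneins are filled, from 1.25 for Mt3 at 24 h with TNF to 3.39 for Mt2 at 72 h, while Slc30a1 is filled at 72 h without TNF (1.71) and at 1 week (2.26).

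The second question was how TNF changed these genes. Its effect was tested at each time against untreated cells of the same time. At 24 h, 0 of the 5 tested genes were called by edgeR and 0 by DESeq2, where edgeR called 3.53% of all tested genes (2.19% higher and 1.34% lower), and 2 of the 5, Mt1 and Mt2, had an unadjusted p under 0.05. With TNF at 24 h Mt1 had 408, 266 and 381 CPM, all below the 3 untreated libraries (430 to 696 CPM), a log2 difference of -0.66 ± 0.29 (edgeR adjusted p = 0.306). Mt2 had 59.8, 38.0 and 34.8 CPM, all below the untreated libraries, of which the lowest had 59.9 CPM (-0.62 ± 0.28, edgeR adjusted p = 0.331). Replicate 1 was the highest TNF library for both genes. Mt3 had 213, 138 and 176 CPM and overlapped the untreated libraries (-0.19 ± 0.18, edgeR adjusted p = 0.736). Mtf1 had 39.1, 31.8 and 31.9 CPM (-0.04 ± 0.11, edgeR adjusted p = 0.929) and Slc30a1 had 55.9, 46.1 and 44.5 CPM (0.01 ± 0.20, edgeR adjusted p = 0.990), both overlapping the untreated libraries.

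At 72 h with TNF, 4 of the 5 tested genes were called, all lower, where 9.43% of all tested genes were called, 4.27% higher and 5.16% lower. Slc30a1 had 41.9, 91.2 and 76.8 CPM with TNF against 154, 193 and 198 CPM without. Every TNF library was below every untreated library, and the log2 fold change was -1.38 ± 0.20, or 0.385-fold (edgeR adjusted p = 0.000119). Mt1 had 523, 431 and 522 CPM with TNF, against 843 CPM in the lowest untreated library (log2 fold change -1.23 ± 0.29, 0.425-fold, edgeR adjusted p = 0.0114). Mt3 had 348, 260 and 306 CPM, against 446 CPM in the lowest untreated library (-0.89 ± 0.18, 0.539-fold, edgeR adjusted p = 0.00295). Mt2 had 62.2, 73.1 and 59.8 CPM, against 88.9 CPM in the lowest untreated library (-0.90 ± 0.28, 0.535-fold, edgeR adjusted p = 0.0495). Mtf1, with 42.1, 46.6 and 47.1 CPM, overlapped the untreated libraries (-0.04 ± 0.11, edgeR adjusted p = 0.875). The median log2 fold change of the 5 genes was -0.90, beside -0.01 over all tested genes.

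The calls of Mt3 and Slc30a1 with TNF at 72 h held when any 1 of the 6 libraries was left out (adjusted p from 0.00127 to 0.0225 and from 7.65e-05 to 0.00113). Mt1 lost its call without 72 h TNF replicate 2 (adjusted p = 0.0512), without 72 h replicate 2 (0.0560) and without 72 h replicate 3 (0.0598), and Mt2 kept its call only without 72 h replicate 1 (0.0247), while without each of the other 5 libraries, TNF replicates 1, 2 and 3 and untreated replicates 2 and 3, its adjusted p was 0.144, 0.0791, 0.125, 0.146 and 0.236. Mt2 also failed with the replicate number as a block (0.0713), with genes kept only at 10 or more counts in every library (0.0614) and with those kept at 5 or more in total (0.105). In a block that left 72 h replicate 3 unpaired, chosen after the data were seen, Mt1 (0.0960) and Mt2 (0.303) both lost the call. The summed astrocyte markers moved with TNF at 72 h as well, from 5696 to 8145 CPM without it to 3485 to 4888 CPM with it. Single markers differed. Gfap had 1855 to 3172 CPM without TNF and 217 to 1022 CPM with it. Gja1, S100b and Aldoc were also lower without overlap, Aldh1l1 was higher without overlap, and Aqp4, Slc1a3 and Slc1a2 overlapped. The oligodendrocyte lineage markers summed to 82.4 to 91.7 CPM without TNF and 145 to 185 CPM with it, without overlap. The endothelial markers, low throughout, summed to 6.28 to 7.61 CPM without TNF and 3.66 to 3.82 CPM with it. The sums of the other marker lists overlapped. The part of all these markers in the result was not tested. Without 72 h TNF replicate 1, the library with the highest mitochondrial share, all 4 genes remained lower and Mt2 alone missed the threshold.

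**Figure D4:**
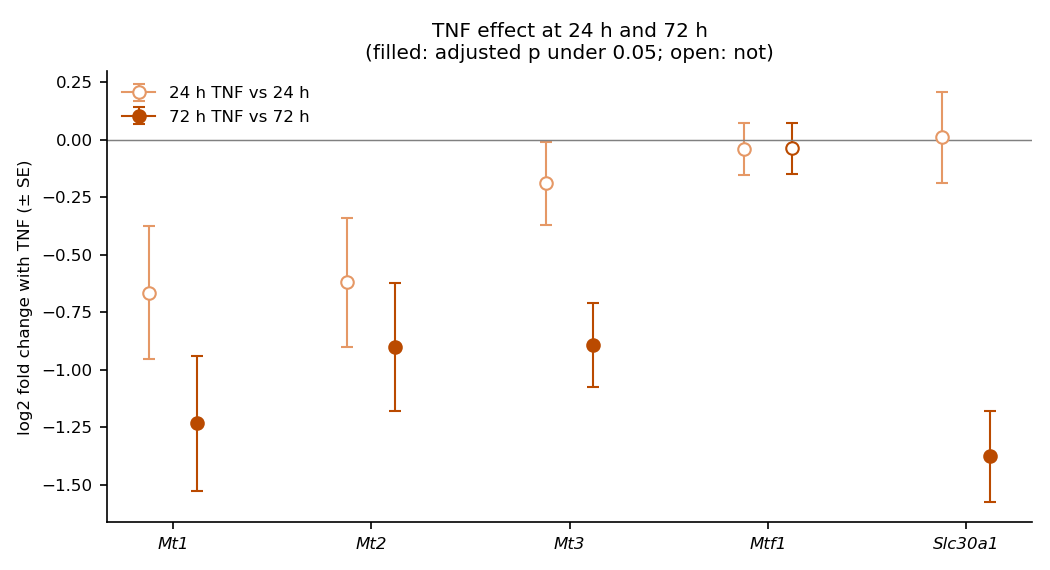
Log2 fold change with TNF against untreated cells of the same time (y axis, with SE) for the 5 tested genes (x axis), at 24 h (light) and 72 h (dark); filled points passed the test and open points did not. The 72 h points of Mt1, Mt2, Mt3 and Slc30a1 are filled and lie between -1.38 and -0.89, while no 24 h point is filled.

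Whether the TNF effect itself differed between 24 h and 72 h was tested as an interaction. Of the 5 genes 1, Slc30a1, was called, where 0.473% of all tested genes were called (0.135% higher and 0.339% lower). Its TNF effect was 0.01 at 24 h and -1.38 at 72 h, a difference of -1.39 ± 0.28 on the log2 scale (edgeR adjusted p = 0.0307). The call rested on single libraries: leaving out 1 of the 12 libraries at a time, the difference lay between -1.63 and -1.11 and passed in 5 of 12 fits, with adjusted p from 0.00984 to 0.128. It was lost without any of the 3 untreated 24 h libraries (0.0908, 0.0655 and 0.128), 24 h TNF replicate 1 (0.0612), 72 h TNF replicate 3 (0.0512) and 72 h replicates 2 and 3 (0.0978 and 0.109), in a fit of the 4 conditions alone (0.100), and in the block that left 72 h replicate 3 unpaired (0.179). For Mt3 the difference between the TNF effects was -0.70 ± 0.25 (unadjusted p = 0.0124, edgeR adjusted p = 0.318), for Mt1 -0.57 ± 0.41 (edgeR adjusted p = 0.673), for Mt2 -0.28 ± 0.39 (edgeR adjusted p = 0.828) and for Mtf1 0.01 ± 0.16 (edgeR adjusted p = 0.994).

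Cells that differentiated under TNF still held more metallothionein RNA than NSPs. At 24 h with TNF, 3 of the 5 tested genes were higher than in NSPs, where 54.4% of all tested genes were called, 28.1% higher and 26.3% lower. Mt1 was 3.06-fold higher (log2 fold change 1.61 ± 0.30, edgeR adjusted p = 0.000210), Mt2 3.82-fold (1.93 ± 0.30, edgeR adjusted p = 3.83e-05) and Mt3 2.38-fold (1.25 ± 0.18, edgeR adjusted p = 1.60e-05). At 72 h with TNF, 4 were higher, where 61.7% of all tested genes were called, 31.7% higher and 30.1% lower. Mt1 was 4.28-fold above NSPs, Mt2 5.62-fold, Mt3 4.13-fold and Mtf1 1.40-fold (log2 fold changes 2.10 ± 0.30, 2.49 ± 0.30, 2.05 ± 0.19 and 0.48 ± 0.11, all with an edgeR adjusted p of at most 0.00102). Slc30a1 was the exception: its TNF libraries at 72 h straddled the NSP level (41.9 to 91.2 against 53.8 to 57.9 CPM; log2 difference 0.33 ± 0.20, edgeR adjusted p = 0.145). Without 72 h TNF replicate 1, its lowest library there, Slc30a1 passed at 0.64 (adjusted p = 0.000969), and it passed at 0.48 with genes kept only at 10 or more counts in every library (0.0395).

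From 24 h to 72 h under TNF, 2 of the 5 tested genes were called, both higher, where 13.3% of all tested genes were called, 5.35% higher and 7.96% lower. Mt3 rose 1.73-fold (log2 fold change 0.79 ± 0.18, edgeR adjusted p = 0.00661) and Mtf1 1.32-fold (0.40 ± 0.11, edgeR adjusted p = 0.0218). The log2 difference was 0.48 ± 0.29 for Mt1, 0.56 ± 0.28 for Mt2 and 0.52 ± 0.20 for Slc30a1 (edgeR adjusted p = 0.309, 0.215 and 0.0911). Mtf1 lost its call in 4 of 6 fits that left out a library (without 24 h TNF replicates 2 and 3, 0.0851 and 0.108, and without 72 h TNF replicates 2 and 3, 0.0686 and 0.0807). Without 72 h TNF replicate 1 Slc30a1 passed (0.81, adjusted p = 0.000926), and without 24 h TNF replicate 1 both Slc30a1 (0.66, 0.0373) and Mt2 (0.88, 0.0487) passed.

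The conditions were put in order by mean CPM for each gene. From the lowest mean to the highest, Mt1 and Mt2 ran NSPs, 24 h TNF, 72 h TNF, 24 h, 1 week, 72 h. Neighbours in this order overlapped, except NSPs from 24 h TNF for both genes, 24 h TNF from 72 h TNF for Mt1, and 1 week from 72 h for Mt2. Mt3 ran NSPs, 24 h TNF, 24 h, 72 h TNF, 1 week, 72 h, with overlap between the 2 conditions at 24 h and between 1 week and 72 h. Slc30a1 ran 24 h, 24 h TNF, NSPs, 72 h TNF, 72 h, 1 week, with the first 4 overlapping their neighbours and the last 2 standing apart. Mtf1 ran NSPs, 24 h TNF, 24 h, 72 h TNF, 72 h, 1 week, with no overlap between 24 h and 72 h TNF or between 72 h and 1 week. The ratio of Mt1 to Mt2 counts stayed within 5.90 to 11.8 over the 18 libraries, and that of Mt1 to Mt3 within 0.965 to 3.05. The ratio of Mt1 to Mt3 counts was 2.76 ± 0.284 at 24 h and 1.47 ± 0.146 at 1 week (SD, n = 3). These ratios are not scaled to length, so they do not rank the genes.

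Across the 18 libraries, which share their 6 conditions, the log2 CPM of Mt1 followed that of Mt2 with Pearson's r = 0.969 and that of Mt3 with r = 0.943, while r with Mtf1 was 0.669 and with Slc30a1 0.600. Slc30a1 followed Mtf1 most closely among the listed genes (r = 0.821). Among all tested genes with a mean of at least 1 CPM, the 3 most like Mt1 were Capn1 (r = 0.981), Klhdc8b (0.975) and Mt2, its neighbour on the chromosome. The 3 most like Mt2 were Klhdc8b (0.978), Pdgfrl (0.972) and Gm17455 (0.970), with Mt1 in rank 4. Mt3 was followed by Tspan15 (0.982), Gpr146 (0.982) and Abhd14b (0.976), Mtf1 by Rprd1b (0.959), Ttll3 (0.957) and Cfap74 (0.957), and Slc30a1 by 8430429K09Rik (0.970), Reep5 (0.962) and Dnajc27 (0.961). These correlations describe patterns over conditions and carry no test.

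Of 9 other zinc exporters of the Slc30 family, 6 were expressed enough to be tested. Of these 6, 0 were called higher in any of the 11 tests by edgeR, 0 by DESeq2 and 0 at an unadjusted p under 0.05, while 2 were lower at 24 h, 3 at 72 h and 4 at 1 week than in NSPs, where 25.5%, 27.2% and 29.1% of all tested genes were called lower. Slc30a10, known as a manganese exporter of the plasma membrane, had 8.31, 33.8 and 33.8 CPM in NSPs, 2.27, 3.99 and 3.25 CPM at 72 h and 0.839, 0.548 and 0.493 CPM at 1 week. It fell by 2.99 ± 0.40 at 72 h and by 5.28 ± 0.48 at 1 week on the log2 scale (edgeR adjusted p = 4.96e-06 and 2.64e-08), and with TNF it was lower than in untreated cells by a log2 difference of -2.24 ± 0.44 at 24 h (edgeR adjusted p = 0.00568). Slc30a4, a transporter of endosomal membranes, was lower at 72 h and 1 week (log2 fold change -0.71 ± 0.15 and -0.95 ± 0.15), and Slc30a5, of the secretory pathway, at 24 h, 72 h and 1 week (-0.47, -0.58 and -0.57, each ± 0.15). The 24 h call of Slc30a5 was lost without NSP replicate 1 (edgeR adjusted p = 0.0804) or 24 h replicate 3 (0.0549). Slc30a1 was the 1 gene of 7 tested in this family that was called higher in any of the tests.

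The importers of the Slc39 family went in both directions. Of 13 beside Slc39a8, all 13 were tested, and against NSPs 3 rose and 1 fell at 24 h. At 72 h 5 rose and 2 fell, and at 1 week 3 rose and 3 fell, so that 4, 7 and 6 of 13 were called at the 3 times, where 52.6%, 55.3% and 58.6% of all tested genes were. By DESeq2, 2 rose and 3 fell at 24 h, so the balance of directions there depended on the tool. Slc39a12, a zinc importer of the brain, had 41.8, 54.9 and 53.1 CPM in NSPs and 477, 589 and 682 CPM at 72 h (log2 fold change 3.55 ± 0.19, edgeR adjusted p = 2.21e-11). With TNF at 72 h it had 214, 356 and 320 CPM, all below the untreated libraries (-0.98 ± 0.17, edgeR adjusted p = 0.00101). Slc39a13, an intracellular zinc transporter, rose as well, by 1.55 ± 0.16 at 72 h and 2.10 ± 0.16 at 1 week on the log2 scale, while Slc39a10, an importer of the plasma membrane, was lower at both times (-1.36 ± 0.21 and -1.35 ± 0.21).

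Slc39a4, the importer known for zinc uptake in the gut, was the importer called higher with TNF. It had 0.0756, 0.112 and 0.244 CPM at 24 h and 2.58, 1.27 and 1.77 CPM at 24 h with TNF, and went from 0.454, 0.859 and 0.991 CPM to 3.72, 6.44 and 10.9 CPM with TNF at 72 h. The groups did not overlap at either time (log2 fold change 3.69 ± 0.59 and 3.14 ± 0.41, edgeR adjusted p = 0.000835 and 4.43e-05). The untreated 24 h libraries held only 1, 2 and 3 counts of it, so the size of the 24 h change is uncertain. Outside the TNF conditions no library held more than 18 counts, so it may have passed the filter on low counts only through those conditions. At 24 h it was 1 of 13 called, where 3.53% of all tested genes were called, and at 72 h 1 was higher and 2, Slc39a12 and Slc39a1, were lower, where 4.27% of all tested genes were higher and 5.16% lower. At 24 h DESeq2 called 1 importer up and 1 down with TNF, and at 72 h it called 1 up and 3 down. The call of Slc39a1 was lost without 72 h TNF replicate 2 or 3 (edgeR adjusted p = 0.0574 and 0.0545), without 72 h replicate 2 or 3 (0.0982 and 0.0920) and in the unpaired block (0.102). Slc39a14, known as an importer induced by interleukin-6, had 115, 46.0 and 49.6 CPM with TNF at 72 h and overlapped the untreated libraries (0.07 on the log2 scale).

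**Figure D5:**
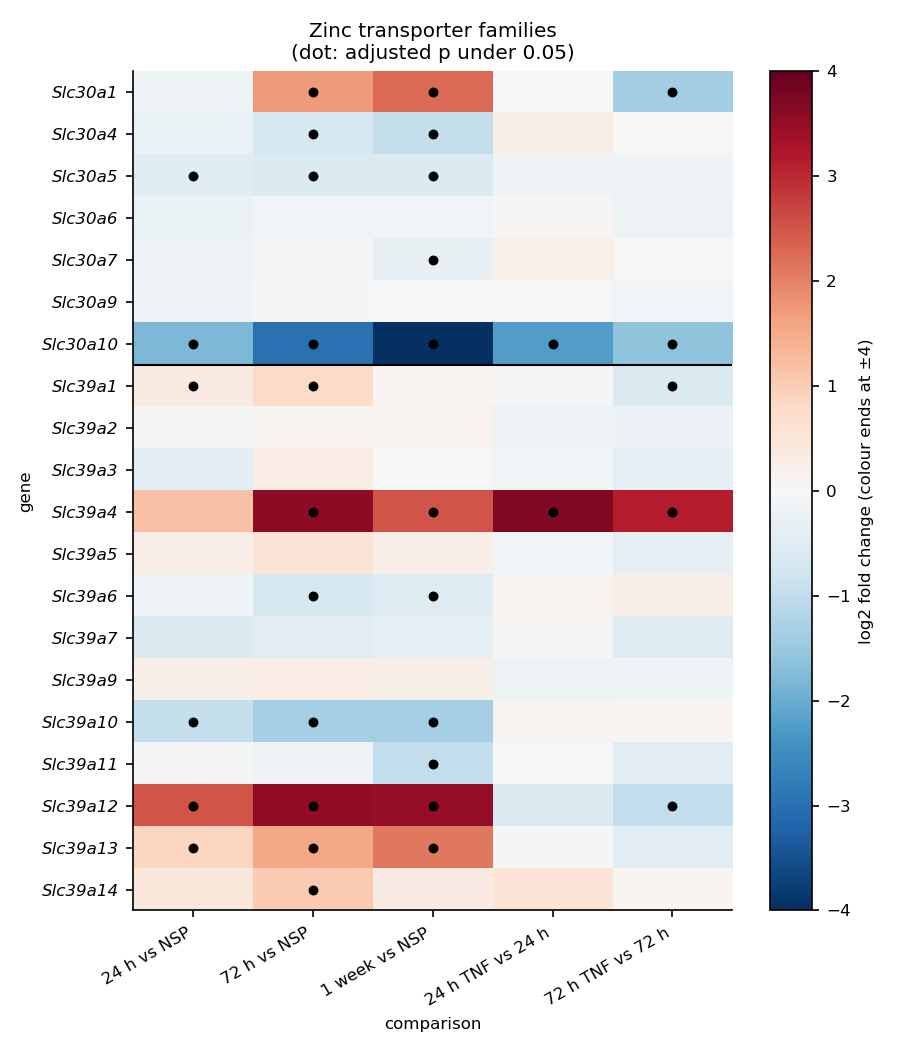
Log2 fold change (colour, ending at ±4) of the tested Slc30 genes (above the line) and Slc39 genes (below it) in 5 comparisons (columns); a dot marks an adjusted p under 0.05. Slc30a1 is the Slc30 gene with dots on red (1.71 and 2.26 against NSPs), Slc30a10 has a dot on blue in all 5 columns, and Slc39a4 has dots on red in both TNF columns.

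Other genes known as targets of Mtf1 were called in both directions during differentiation and higher, where called, with TNF. Of the 6 listed (Gclc, Csrp1, Ndrg1, Selenow, Slc40a1 and Pgf), all tested, 3 rose and 2 fell at 24 h against NSPs. At 72 h 3 rose and 1 fell, and at 1 week 4 rose and 1 fell, beside the same shares of 52.6%, 55.3% and 58.6% over all tested genes. With TNF, 2 were higher at 24 h and 1 at 72 h, where 2.19% and 4.27% of all tested genes were, and at both times 0 were lower by edgeR, by DESeq2 or at an unadjusted p under 0.05. Slc40a1, the iron exporter ferroportin, had 0.635, 0.714 and 0.569 CPM in NSPs, 9.91, 10.9 and 11.2 CPM at 72 h, and 13.2, 22.1 and 17.5 CPM with TNF at 72 h (log2 fold change with TNF 0.72 ± 0.20, edgeR adjusted p = 0.0287). That call held without 72 h TNF replicate 1 and was lost without any other of the 6 libraries (0.0577 to 0.151) and in the unpaired block (0.102). Gclc, of glutathione synthesis, rose by 1.16 ± 0.18 at 72 h and by 1.79 ± 0.19 at 1 week. Its log2 difference with TNF was 0.41 ± 0.18 at 24 h, where the groups did not overlap (edgeR adjusted p = 0.324), and 0.08 at 72 h. Ndrg1, a stress response gene, had 3.02, 1.73 and 2.44 CPM at 24 h and 31.8, 5.07 and 6.31 CPM with TNF (2.61 ± 0.53, edgeR adjusted p = 0.00990), where replicate 1 stood far above the others. Without it the log2 fold change was 1.25 (0.00234), and the call was lost without 24 h replicate 2 (0.0747) or 3 (0.0505) and in a fit of both 24 h conditions alone (0.200).

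Metallothioneins also bind copper, and the 11 listed genes of copper handling were all tested. Against NSPs 2 rose and 2 fell at 24 h, 5 rose and 2 fell at 72 h, and 3 rose and 2 fell at 1 week, beside 52.6%, 55.3% and 58.6% called over all tested genes. By DESeq2, 3 rose and 2 fell at 24 h, and 5 rose and 2 fell at both 72 h and 1 week, so the lower count at 1 week depended on the tool. Atp7b, a copper-exporting ATPase, had 5.27, 8.90 and 7.74 CPM in NSPs and 169, 140 and 119 CPM at 72 h (log2 fold change 4.28 ± 0.26, edgeR adjusted p = 1.28e-10). Commd1, a regulator of copper export, was lower at 72 h (-0.90). With TNF, 1 of 11 was called at each time (3.53% of all tested genes at 24 h and 9.43% at 72 h), Steap4, a metal reductase, which had 1.74, 3.01 and 3.03 CPM at 72 h and 18.7, 36.4 and 31.5 CPM with TNF (3.46 ± 0.67, edgeR adjusted p = 0.00428, and 0.0592 in the unpaired block). At 24 h DESeq2 called 1 copper gene up and 0 down with TNF, and at 72 h it called 2 up and 1 down, where 3 were higher and 5 lower at an unadjusted p under 0.05 by edgeR.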

How the data were processed

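Per the labels and the methods, total RNA was depleted of ribosomal RNA, made into stranded libraries and sequenced from 18 samples. The submitters' processing notes name FastQC, Trim Galore, STAR, SAMtools, featureCounts and mm10. The authors deposited raw read counts per gene without normalization. Tool versions, whether strand was used in counting, and how reads shared by genes were treated are not given in the sources used here. Counts were grouped by the sample labels. A 72 h column has the number 4 where the labels have 3. It was matched by its condition and sequencing index. All 18 columns were used. Of 54838 gene identifiers, 54809 were in GENCODE M21, the source of names, positions and lengths.

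From the deposited counts, edgeR 4.0.16 (limma 3.58.1, R 4.3.3) computed TMM factors and kept 20067 genes with its filter by condition. Its robust quasi-likelihood test used all 18 libraries and 1 mean for each condition. It gave 10 comparisons and the TNF by time interaction, and p-values were adjusted by Benjamini-Hochberg over all tested genes. Log2 CPM for correlations used a prior count of 2. DESeq2 1.42.0 was an alternative. The other alternatives were RLE normalization, filters of at least 10 counts in every library or 5 in total, fits restricted to the groups in a comparison, a block for the replicate number, and leaving out each library. After seeing the data, a block that leaves the library of that 72 h column unpaired was added. The scripts were tested on simulated counts. Replicates differed by more than sampling noise in every condition (chi-square test of counts over genes, for each pair). Same-numbered libraries deviated together in all 3 pairs (r from 0.255 to 0.291) only between the 2 TNF conditions, where the numbers in the labels were taken as pairs and the block changed no call of these genes. Precision of a level is limited by the total counts of 12509693 to 22549627 per library, which covers counting error only. Promoters were those of RefSeq on GRCm38.p6. Other steps ran in Python 3.11.15 (numpy 2.4.6; pandas 2.3.3; matplotlib 3.10.9).

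The 6 genes and the lists were chosen with earlier results of these data known. The text names the 5 tested genes in every comparison and Slc39a8 by its counts, up to 3 called genes of each list per direction and comparison (mean of 1 CPM or more), and the 3 genes most alike in pattern for each of the 5.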

Additional observations from a re-analysis of the deposited data

Results flagged for a closer look

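The effect of TNF on Slc30a1 differed between the times by the interaction test. The effect at 72 h minus that at 24 h was -1.39 ± 0.28 on the log2 scale (edgeR adjusted p = 0.0307), and all 3 TNF libraries at 72 h were below the untreated ones while the libraries at 24 h overlapped. The call passed in 5 of the 12 fits that left out 1 library, and was lost in a fit of the 4 conditions alone (adjusted p = 0.100) and in a replicate block with 72 h replicate 3 unpaired (0.179), chosen after the data were seen.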

How the results depend on the processing

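The counts of the 6 genes called at 24 h, 72 h and 1 week and at 24 h with TNF against NSPs did not change under any alternative run, DESeq2 and RLE normalization included, and that at 72 h with TNF was 4 or 5. Between 72 h and 24 h the count of 5 became 4 with at least 5 counts in total, where Mt2 failed (adjusted p = 0.0733), and 3 in the replicate block with an unpaired 72 h library, and was 3 to 5 without single libraries. For TNF at 72 h, 4 became 2 in that block and was 2 to 4 without single libraries. From 24 h to 72 h under TNF, 2 became 1 in a fit of the groups compared alone and was 1 to 4 without single libraries. In the fit of the groups alone, 1 week against 72 h went from 0 to 2. The interaction count of 1 became 0 in that fit and in the unpaired block, and was 0 to 1 without single libraries. Outside the TNF conditions same-numbered libraries share only a number, and the plain replicate block ended 2 calls, both of Mt2 (72 h against 24 h, adjusted p = 0.0523, and TNF at 72 h, 0.0713). The order of levels per length held in 6 conditions by exon union and in 2 by the longest transcript, and of the 15 most alike genes by Pearson's r 7 were also so by Spearman's rho, with ties kept. Calls of the named genes of the other lists were lost in 129 fits that left out a library and kept in 609, and were lost in 47 fits under other settings and kept in 698, with no change of sign. The cause of these shifts was not tested.

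Log2 differences near 0, none of them called, changed sign. With the unpaired block Mt3 at 1 week against 72 h was 0.0175 and the Mtf1 interaction -0.00603. With at least 10 counts in every library Mtf1 with TNF at 72 h was 0.000802, and with at least 5 in total Slc30a1 with TNF at 24 h was -0.00775. Without single libraries the range was -0.46 to 0.0294 for the Mt2 interaction, -0.23 to 0.00901 for Mt3 at 1 week against 72 h, -0.0481 to 0.14 for Mtf1 at 24 h with TNF against NSPs, -0.16 to 0.00697 for Mtf1 with TNF at 24 h, -0.0668 to 0.0155 for Mtf1 with TNF at 72 h, -0.0445 to 0.14 for the Mtf1 interaction, and -0.12 to 0.0733 for Slc30a1 with TNF at 24 h.

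Counts over all genes moved by more than 1.5 times in 5 comparisons: 1323 at 1 week against 72 h became 2003 in the groups alone and 615 in the unpaired block (625 to 1357 without single libraries), 2671 from 24 h to 72 h under TNF became 816 in the groups alone (1212 to 3782), 1892 for TNF at 72 h became 996 in the unpaired block (980 to 2937), 95 for the interaction became 56 with at least 10 counts in every library, 25 in the unpaired block, 38 in the groups alone and 246 by DESeq2 (25 to 133), and 708 for TNF at 24 h became 357 to 746 without single libraries.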
